A study of Caenorhabditis elegans with 12 samples.

Results

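The control worms of 2 *C. elegans* strains, N2 and TU3401, both fed empty vector (EV) bacteria, were set against each other, with 3 RNA-seq libraries for each strain. All genes that averaged at least 1 TPM across these 6 libraries were taken, which were 13348 of the 46904 genes in the deposited tables. TPM is a level relative to the library's total and per transcript length, so it can be compared between genes. The rule used the mean over both groups and not their difference. Of the genes it took, 3111 had a mean under 1 TPM in N2 EV and passed only through TU3401 EV, 338 passed only through N2 EV, and 9899 averaged 1 TPM or more in each group. Just inside the limit lay *R10E8.10*, with means of 0.1096 TPM in N2 EV and 1.89 TPM in TU3401 EV, and just outside it acr-11, with 0.891 and 1.11 TPM.

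The series studied the knockdown of *rpia-1*, which encodes an enzyme of the pentose phosphate pathway, by feeding worms *E. coli* HT115 that makes double-stranded RNA, in 12 libraries of whole worms. N2 is the wild type, and its EV control libraries carry day 5 in their labels. TU3401 carries the integrated transgene uIs69, made of pCFJ90 (myo-2p::mCherry) together with unc-119p::sid-1, in which the promoter of the neuronal gene *unc-119* drives *sid-1*, a channel for double-stranded RNA, and a pharyngeal muscle promoter drives a red marker. Its EV control libraries carry day 0 in one label and L4, the last larval stage, in another, and the methods describe collection at day 5 of adulthood without setting this strain apart. Each sample held at least 500 whole worms, collected independently, and both groups received the same vector and no *rpia-1* RNAi. Strain and labelled age thus differ together in this contrast and cannot be told apart. In whole worms, fewer cells of a type and less RNA per cell cannot be told apart either.

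An adult *C. elegans* hermaphrodite is a small number of somatic tissues around a large gonad. The gonad makes sperm first, late in larval life, and then switches to oocytes, which take up yolk made in the intestine, are wrapped in an eggshell and, after fertilization, develop inside the uterus before they are laid. The epidermis builds a new collagen cuticle at each moult, so collagen genes are read in waves tied to larval stages and the young adult. Whole-worm RNA therefore mixes soma, germ line and embryos.

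The 6 libraries summed to 1027083 to 1032160 TPM, slightly above the sum that TPM has by definition, and their total reads are not given; the steps between low FPKM values put N2 EV replicate 2 at 0.631 and TU3401 EV replicate 3 at 0.843 times the depth of the median of the 12 libraries, and the other 4 at 0.962 to 1.00. Genes above 0 TPM numbered 18043 to 19135 in the N2 EV libraries and 21314 to 22945 in the TU3401 EV libraries. Pearson's r across genes on the log2(TPM + 1) scale was 0.984 to 0.995 within the groups and 0.721 to 0.788 between them, where genes are not independent replicates. TU3401 EV replicate 3 had 115 genes of at least 5 TPM at 2-fold or more above both other libraries of its group, and N2 EV replicate 3 had 57, against 3 to 26 in the other libraries. N2 EV replicate 2 and TU3401 EV replicate 3 also had the lowest ratios of TPM to FPKM, 1.39 and 1.21, against 1.73 to 1.93 in the other 4 libraries. No 2 libraries held identical values. As a check of the labels, *rpia-1* itself stood at 128, 115 and 120.4 TPM in N2 EV and 107, 107 and 115 TPM in TU3401 EV, a log2 difference of 0.14 ± 0.07 that did not pass the test (limma, adjusted p = 0.0860).

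Nearly the whole transcriptome differed between the 2 controls. With limma on log2(TPM + 1) and a Benjamini-Hochberg adjusted p under 0.05, 11859 of 13348 genes passed, which is 88.8% of them, with 5798 genes (or 43.4%) higher in N2 EV and 6061 genes (or 45.4%) higher in TU3401 EV. The 3 N2 EV values and the 3 TU3401 EV values did not overlap in 89.6% of genes. With this filter the numbers in each direction were thus close, and the sizes were not. Among the 9899 genes with at least 1 TPM in each group, 5488 were higher in N2 EV and 2996 in TU3401 EV. The near-equal split thus depends on the filter. At least 4-fold differences on this scale, which understates those of genes at low levels, were found for 283 genes higher in N2 EV (2.12%) and 2576 genes higher in TU3401 EV (19.3%). The largest difference reached 6.42 (log2) towards N2 EV and −9.59 towards TU3401 EV. Every difference below is N2 EV minus TU3401 EV on the log2 scale, given ± its standard error, group means are given ± SD (n = 3), and a gene is called higher or lower only where it passed this test.

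The genes at least 4-fold higher in TU3401 EV took 16.5% of all TPM in TU3401 EV and 1.124% in N2 EV, while those at least 4-fold higher in N2 EV took 2.95% in N2 EV and 0.501% in TU3401 EV. Since TPM share a fixed sum, how the libraries are scaled moves the small differences. The median over all genes tested was −0.06, and quantile normalization moved it by 0.31 and median-of-ratios scaling by −0.17. With quantile normalization 6546 genes were higher in N2 EV and 4100 in TU3401 EV, so the split of calls also depends on the scaling. Counts for many gene groups are given below with quantile normalization too, and those of other groups can shift with it as well. A member of a list that passed the filter only through TU3401 EV, or only through N2 EV, where it was high, had to differ in that direction. The number of members that passed only through TU3401 EV is given beside the counts of many lists, and other lists may hold such members too. It was not counted for families read from gene symbols alone. The direction also went with the level. Of the 4202 genes with a mean of 1 to 5 TPM, 12.3% were higher in N2 EV and 73.2% in TU3401 EV, whereas of the 4111 genes with 20 to 100 TPM 73.6% and 18.97% were.

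**Figure D1:**
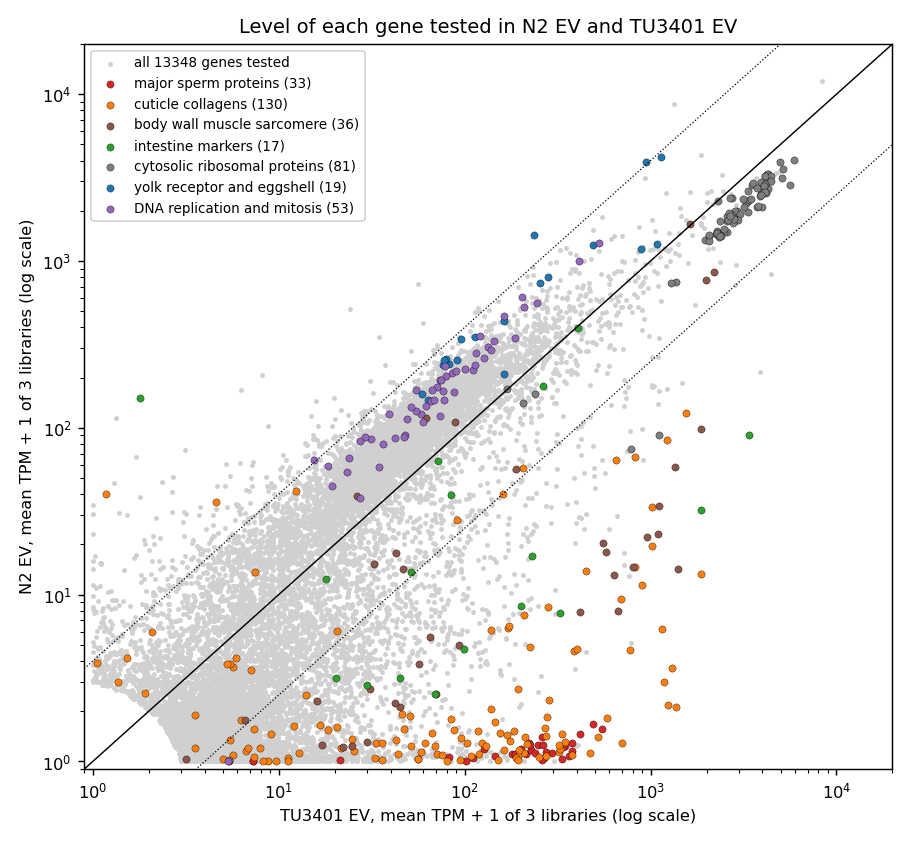
Mean TPM + 1 of each of the 13348 genes tested in TU3401 EV (horizontal, log scale) and N2 EV (vertical, log scale), with 7 gene lists in colour; the solid line marks equal levels and the dotted lines 4-fold differences. Sperm protein and collagen genes lie along the lower edge, with muscle and intestine genes above them, and eggshell and DNA replication genes lie above the line of equal levels.

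Sperm transcripts were nearly absent from N2 EV. Major sperm proteins (msp) form the filaments that move the amoeboid sperm of nematodes, and all 33 tested msp genes of 35 in the files were lower in N2 EV, each by at least 4-fold, with a median difference of −7.64. Every one of them had a mean under 1 TPM in N2 EV, so all passed the filter only through TU3401 EV. Their TPM summed to 13.5, 2.96 and 0.638 TPM in the N2 EV libraries and 6841, 6790.1 and 9594 TPM in the TU3401 EV libraries. The N2 EV libraries thus lay near 0, and replicate 1 held most of the little there was. *msp-59* stood at 1.62, 0.0587 and 0 TPM in N2 EV and 469.6, 502 and 679 TPM in TU3401 EV. Among 55 other sperm genes, 51 were lower and 3 higher in N2 EV, with a median of −4.88; 45 of the 55 passed the filter only through TU3401 EV. *gsp-3*, a protein phosphatase of sperm, stood at 0, 0.126 and 0.0671 TPM in N2 EV and 64.3, 62.6 and 77.9 TPM in TU3401 EV, and *nspd-2*, of a family of short nematode-specific sperm peptides, at 0 TPM in each N2 EV library against 260.2, 269.5 and 373 TPM in TU3401 EV. The groups did not overlap for any of the 33 msp genes or for 54 of the 55 other sperm genes, against 89.6% of all genes tested. The 3 genes of this list that were higher in N2 EV, *spe-5*, *spe-39* and *spe-48*, had means of 19.2, 102 and 63.3 TPM there, and *spe-39* is also needed for vesicle traffic in other cells. Reads of near-identical msp copies may have been split among them by the counting, and values of single msp genes are uncertain.

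Other genes of the sperm-making germ line and further short peptide families were also lower in N2 EV. The Argonautes *alg-3* and *alg-4*, which act in the male germ line, had means of 0.0771 and 0.0421 TPM in N2 EV and 15.8 and 13.6 TPM in TU3401 EV. The families nspa, nspb and nspc of short nematode-specific peptides had 8, 11 and 18 tested members, and all of them were lower in N2 EV, with medians of −3.46, −3.07 and −2.999. How many of them passed the filter only through TU3401 EV was not counted, and such members had to differ in this direction.

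Collagens of the cuticle included the gene with the largest difference of all, although the median of the msp genes was lower. Of 130 tested collagen genes (179 in the files), 118 were lower and 8 higher in N2 EV, with a median of −5.43 and 108 at least 4-fold lower; 83 of them had a mean under 1 TPM in N2 EV. The collagens summed to 793, 804 and 871 TPM in the N2 EV libraries and 30227, 27077 and 37655 TPM in the TU3401 EV libraries, a 38.5-fold difference of the means. The groups were far apart, and TU3401 EV replicate 3 was the highest library. *col-139*, with the lowest difference of any gene, stood at 3.05, 0.205 and 0.103 TPM in N2 EV and 1267, 1155 and 1680.0 TPM in TU3401 EV, so N2 EV replicate 1 was above the other libraries of its group and all were far below TU3401 EV. *col-124*, the most abundant collagen, had 12.3 ± 6.43 TPM in N2 EV and 1862 ± 238 TPM in TU3401 EV. *col-19*, a collagen of the adult cuticle, stood at 11.8, 7.26 and 6.06 TPM in N2 EV and 648, 602 and 826 TPM in TU3401 EV (−6.24 ± 0.21; limma, adjusted p = 9.82e-09), and *rol-6* at 0.398, 0.196 and 0 TPM in N2 EV and 17.1, 16.4 and 28.7 TPM in TU3401 EV.

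A few collagens went the other way. *dpy-14* stood at 18.7, 27.1 and 71.5 TPM in N2 EV and 0.172, 0.269 and 0.104 TPM in TU3401 EV (4.86 ± 0.40), *dpy-17* at 17.5, 25.3 and 61.3 TPM in N2 EV and 3.86, 4.04 and 2.87 TPM in TU3401 EV (2.78 ± 0.37), and *col-95* had 41.02 ± 6.37 TPM in N2 EV and 11.5 ± 5.47 TPM in TU3401 EV; the other collagens higher in N2 EV were *col-121*, *col-43*, *col-116*, *col-158* and *dpy-10*, all with means under 13 TPM. N2 EV replicate 3 held by far the most *dpy-14* and *dpy-17*, and *sqt-3*, a collagen that was lower in N2 EV, varied in the same way at 13.4, 19.9 and 47.7 TPM in N2 EV and 76.3, 76.4 and 118.7 TPM in TU3401 EV. *dpy-7* did not pass the test (−0.64 ± 0.43; limma, adjusted p = 0.184), and it was lower in N2 EV once N2 EV replicate 3 was left out (−1.19, adjusted p = 0.00198).

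Among other products of the epidermis, the Hedgehog-related and abu genes were mostly lower in N2 EV. The Hedgehog-related genes (grd, grl, wrt and others), which encode secreted signal-like proteins of the epidermis, had 25 tested members of 61, of which 21 were lower and 2 higher (median −3.02). Of these 25 genes 18 passed the filter only through TU3401 EV, and in a fit limited to genes with at least 1 TPM in each group 4 of 7 were lower and 3 higher. With quantile normalization 16 of the 25 were lower and 5 higher (median −1.74). *grl-16* and *grd-14* had means of 0.248 and 0.127 TPM in N2 EV against 98.8 and 55.1 TPM. Of 41 moulting and cuticle assembly genes, 27 were lower, 6 higher and 8 did not pass, with a median of −0.78. With quantile normalization that became 23 higher and 11 lower (median 0.41). Of the 41, 10 passed the filter only through TU3401 EV and 1 only through N2 EV. In this list *cut-2*, a cuticlin, was lowest (−4.66 ± 0.23) and *ptr-2*, a Patched-related protein, highest (1.66 ± 0.08), and *noah-1*, a protein of the epidermal matrix, stood at 7.97, 8.59 and 22.8 TPM in N2 EV and 4.61, 3.59 and 5.69 TPM in TU3401 EV, with N2 EV replicate 3 again highest. The call of *noah-1* was lost with all 12 libraries in 1 fit and with no filter (limma, adjusted p = 0.113 and 0.0880). The abu and pqn genes, which encode glutamine- and asparagine-rich proteins, divided by family. All 11 tested abu genes were lower in N2 EV, whereas of 44 pqn genes 26 were lower and 17 higher; *pqn-59* had 1006 ± 22.6 TPM in N2 EV and 439 ± 35.9 TPM in TU3401 EV. Over both families 37 of 55 were lower (median −1.58), and 27 of the 55 passed the filter only through TU3401 EV; in a fit limited to genes with at least 1 TPM in each group 10 of 28 were lower and 17 higher. With quantile normalization 30 of the 55 were lower and 14 higher (median −0.40).

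Genes that time the larval stages moved in both directions. Of 20 regulators of moulting and developmental timing, 8 were higher and 9 lower in N2 EV (median −0.24), and 12 and 4 with quantile normalization (median 0.66). *lin-14*, a nuclear protein of the first larval stages, had 1.602 ± 0.0608 TPM in N2 EV and 14.7 ± 1.39 TPM in TU3401 EV. *lin-29*, the zinc finger factor that drives the switch of the epidermis to its adult form, had 0.212 ± 0.0758 TPM in N2 EV and 3.26 ± 0.690 TPM in TU3401 EV. *lin-41* and *lin-28*, both also used in the germ line or embryo, were higher, with 227 ± 9.23 TPM in N2 EV and 102 ± 17.6 TPM in TU3401 EV for *lin-41* and 103.6 ± 6.19 TPM in N2 EV and 36.9 ± 1.87 TPM in TU3401 EV for *lin-28*.

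Transcripts of muscle were much lower in N2 EV. Of 36 genes of the body wall muscle sarcomere, 32 were lower (24 of them at least 4-fold), 3 were higher and 1 did not pass, with a median of −4.20. Of the 36, 6 passed the filter only through TU3401 EV. *unc-54*, the main myosin heavy chain, stood at 6.42, 6.41 and 8.23 TPM in N2 EV and 651, 644 and 710.4 TPM in TU3401 EV (−6.39 ± 0.10), a 95.2-fold difference of the means. *mlc-3*, a myosin light chain, stood at 13.1, 9.96 and 16.7 TPM in N2 EV and 1256, 1295 and 1653 TPM in TU3401 EV, and *unc-15*, paramyosin, at 13.5, 9.79 and 13.2 TPM in N2 EV and 598, 607 and 701 TPM in TU3401 EV. Each of these had non-overlapping groups with little spread within them. The exceptions are used in many cells besides muscle: *act-2*, an actin, had 1669 ± 65.4 TPM in N2 EV and 1627 ± 46.99 TPM in TU3401 EV and did not pass, and *pat-3*, the beta integrin, *unc-45*, a myosin chaperone, and *clp-1*, a calpain, were higher in N2 EV by 0.89 ± 0.07, 0.58 ± 0.08 and 0.29 ± 0.07, the last of which turned to −0.29 with quantile normalization. The muscle actins *act-1*, *act-3* and *act-4* were lower, with differences of −1.36 ± 0.07, −1.36 ± 0.09 and −4.27 ± 0.14; the actin genes are near-identical, so reads may have been shared among them.

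Several markers of pharyngeal muscle were at or near 0 in N2 EV, and others were not. The 3 pharyngeal muscle markers *myo-1*, *myo-2* and *tnc-2* summed to 0.229 to 0.534 TPM in the N2 EV libraries and 36.1 to 55.9 TPM in the TU3401 EV libraries. *myo-2*, the pharyngeal myosin whose promoter also drives the red marker of TU3401, stood at 0.0628, 0.0767 and 0.0962 TPM in N2 EV and 16.8, 14.1 and 20.7 TPM in TU3401 EV (−4.06 ± 0.16). Of 11 tested pharyngeal muscle and gland genes, 10 were lower and 1, *dod-6*, was higher (2.07 ± 0.13). Of the 11, 9 passed the filter only through TU3401 EV, and the 2 with at least 1 TPM in each group were *dod-6* and *tni-4*. *tni-4*, a troponin I of pharyngeal muscle, was present in both groups, at 14.4, 12.6 and 16.6 TPM in N2 EV and 44.98, 43.1 and 68.4 TPM in TU3401 EV (−1.75 ± 0.18). *phat-4*, of the pharyngeal gland, had 0.0227 TPM in N2 EV and 18.01 TPM in TU3401 EV.

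In the intestine, which digests food and makes yolk, most marker genes were far lower in N2 EV. Of 17 intestine genes, 15 were lower, with a median of −3.42, 1 was higher and 1, the protease *cpr-1*, did not pass (−0.04 ± 0.11). *act-5*, the actin of the microvilli, stood at 28.9, 32.8 and 32.3 TPM in N2 EV and 1808, 1892 and 1928 TPM in TU3401 EV, *ifb-2*, an intermediate filament of the gut, at 6.19, 6.53 and 7.48 TPM in N2 EV and 315, 301 and 353 TPM in TU3401 EV, and *elt-2*, the GATA factor that runs gut transcription, at 2.01, 2.36 and 2.18 TPM in N2 EV and 18.3, 19.1 and 20.4 TPM in TU3401 EV. The smallest difference among the 5 intestine markers was that of the esterase *ges-1*, at 10.8, 11.5 and 12.01 TPM in N2 EV and 16.99, 16.6 and 17.6 TPM in TU3401 EV, and its direction turned with quantile normalization (0.08). The member that was higher was *mtl-1*, a metallothionein, at 142, 135 and 171 TPM in N2 EV and 1.46, 0.367 and 0.581 TPM in TU3401 EV (6.42 ± 0.21), the largest difference towards N2 EV of any gene. None of the 21 tested cathepsin-type proteases of the gut lumen and lysosome was higher in N2 EV and 18 were lower (median −1.93); *asp-1* had 89.6 ± 7.25 TPM in N2 EV and 3388 ± 135 TPM in TU3401 EV.

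All 6 vitellogenin genes, which encode the yolk proteins, were lower in N2 EV, from −3.82 ± 0.08 for *vit-1* to −0.73 ± 0.10 for *vit-5*. Their TPM summed to 3301, 2677 and 3039 TPM in the N2 EV libraries and 9859.8, 10967 and 10287 TPM in the TU3401 EV libraries. *vit-2* stood at 1032, 851 and 962 TPM in N2 EV and 2737, 3065 and 2810.3 TPM in TU3401 EV and *vit-1* at 63.0, 62.4 and 63.7 TPM in N2 EV and 814, 929 and 977 TPM in TU3401 EV, so the groups did not overlap for either. *vit-3*, *vit-4* and *vit-5* are near-identical in sequence, and their reads may have been shared.

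Lipid genes moved in both directions, and most were lower in N2 EV. Of 20 genes that make and modify fatty acids, 15 were lower and 2 higher (median −0.87). The elongases *elo-2*, *elo-5* and *elo-6* differed by −3.34 ± 0.09, −3.11 ± 0.12 and −3.09 ± 0.09 and the stearoyl desaturases *fat-6* and *fat-7* by −1.37 ± 0.09 and −3.46 ± 0.18, whereas *fat-5*, the palmitoyl desaturase, was higher at 77.9, 87.0 and 105 TPM in N2 EV and 13.1, 16.1 and 13.6 TPM in TU3401 EV (2.57 ± 0.13). Lipases and lipid-binding proteins had 12 of 19 lower (median −1.65). In that list *far-2*, one of the 10 most abundant transcripts of TU3401 EV, had 832 ± 77.8 TPM in N2 EV and 4454 ± 669 TPM in TU3401 EV, while *far-3* stood at 39.1, 42.8 and 57.8 TPM in N2 EV and 1.58, 0.703 and 1.82 TPM in TU3401 EV and *lbp-9* was higher (1.02 ± 0.07). Fatty acid activation and beta-oxidation genes had 31 lower and 19 higher of 57 (median −1.16), from −4.92 ± 0.15 for *acdh-8* to 2.16 ± 0.18 for *cpt-6*; 12 of the 57 passed the filter only through TU3401 EV, and with quantile normalization 28 were lower and 21 higher (median −0.18). In a fit limited to genes with at least 1 TPM in each group 19 of 45 were lower and 19 higher (median −0.06). All 8 tested aquaporin genes were lower in N2 EV.

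**Figure D2:**
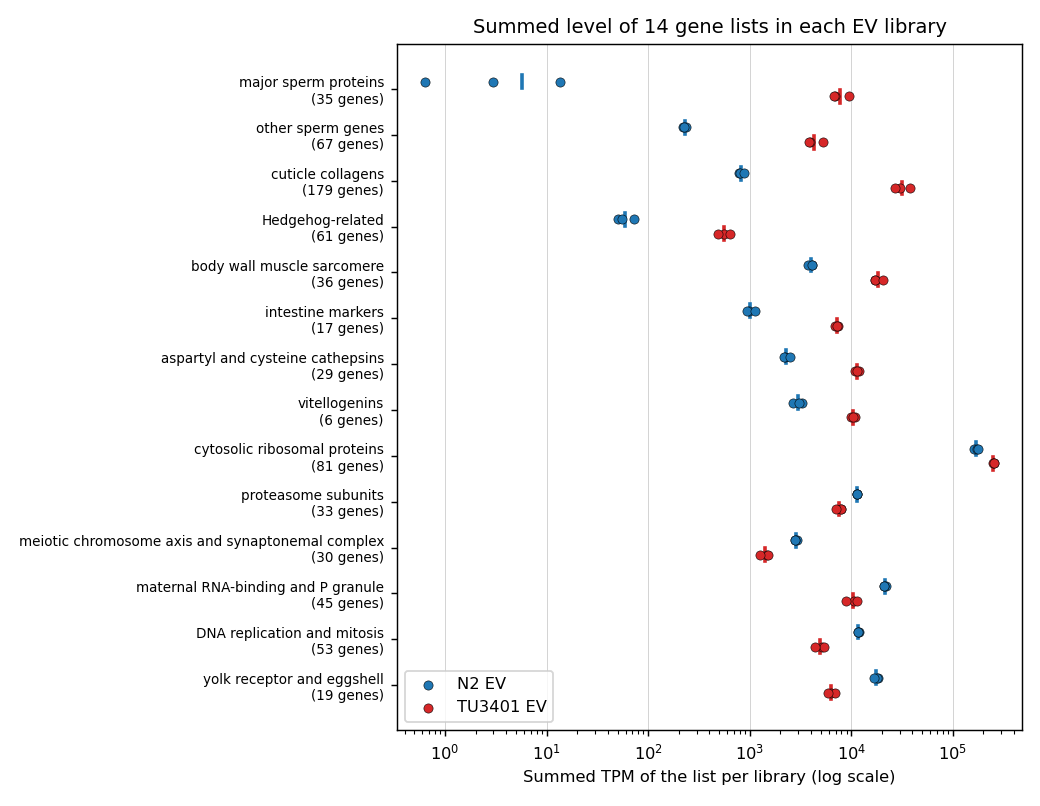
Summed TPM of 14 gene lists (horizontal, log scale) in each of the 3 N2 EV libraries (blue) and the 3 TU3401 EV libraries (red), with a bar at each group mean. The 2 groups do not overlap in any of the 14 lists; sperm, collagen, muscle, intestine, yolk and ribosomal protein lists lie higher in TU3401 EV and germ line, eggshell and proteasome lists higher in N2 EV.

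Oocyte and eggshell genes were higher in N2 EV. All 19 genes for the yolk receptor and eggshell were higher in N2 EV, with a median of 1.53, and summed to 18153, 17828 and 16900.5 TPM in the N2 EV libraries and 6302, 6889.8 and 5925 TPM in the TU3401 EV libraries. *cpg-2* and *cpg-1*, the chondroitin proteoglycans of the eggshell, stood at 4244, 4414 and 4009 TPM in N2 EV and 1143, 1234 and 1016 TPM in TU3401 EV and at 4093, 3863 and 3735 TPM in N2 EV and 975, 1074 and 793 TPM in TU3401 EV, both among the 10 most abundant transcripts of N2 EV, and *cpg-3* had the largest difference (2.61 ± 0.10). *rme-2*, the receptor by which oocytes take up yolk, stood at 738, 759 and 701 TPM in N2 EV and 263, 275 and 223 TPM in TU3401 EV. The receptor and its ligands thus differed in opposite directions. The smallest difference in the list was that of *perm-2* (0.22 ± 0.08), and its call was not stable: it did not pass in 10 of 21 alternatives, among them FPKM (0.05), median-of-ratios scaling (0.03) and leaving out N2 EV replicate 1 (0.19) or 3 (0.21) or TU3401 EV replicate 1 (0.14).

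Of 44 tested maternal RNA-binding and germ granule genes, 41 were higher, 2 (*fbf-2* and *puf-9*) lower, and *glh-1*, a germ granule helicase, did not pass, with a median of 1.25. *fbf-2* and *puf-9* differed by only −0.32 ± 0.12 and −0.24 ± 0.10, and neither call was stable. That of *fbf-2* was lost in 8 of 21 alternatives, among them FPKM, quantile normalization and leaving out N2 EV replicate 1 or 2 or TU3401 EV replicate 1 or 2. That of *puf-9* was lost in 9, among them FPKM, the replicate block and each single library left out but TU3401 EV replicate 3, and it turned to 0.29 with quantile normalization. *nos-2*, a Nanos protein of the germ line precursors, stood at 334, 299.7 and 302 TPM in N2 EV and 71.3, 84.6 and 54.8 TPM in TU3401 EV (2.15 ± 0.14), and *pos-1*, a zinc finger protein of the early embryo, at 1887, 1936 and 1706 TPM in N2 EV and 553, 608 and 489 TPM in TU3401 EV. All 30 meiotic chromosome genes were higher (median 0.94), with *dsb-2*, needed for meiotic breaks, at 116, 112.02 and 108 TPM in N2 EV and 33.8, 34.5 and 30.3 TPM in TU3401 EV and *syp-1* of the synaptonemal complex at 113, 102 and 109.7 TPM in N2 EV and 52.3, 52.2 and 43.7 TPM in TU3401 EV. Of 53 DNA replication and mitosis genes, 52 were higher (median 1.21), among them *pcn-1*, the sliding clamp PCNA, with 997 ± 42.9 TPM in N2 EV and 412 ± 61.8 TPM in TU3401 EV, and *rnr-2*, of ribonucleotide reductase, with 605 ± 35.2 TPM in N2 EV and 201 ± 16.2 TPM in TU3401 EV. *cdc-25.4*, listed at 0 TPM in each N2 EV library and at 4.32 TPM in TU3401 EV, was the only member of this list that was lower. TU3401 EV replicate 3 was the lowest library for nearly every germ line gene given here. The highest difference in these 4 lists was 2.61, and 0 meiotic genes reached 4-fold.

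Histone genes (his) moved in both directions, with 22 of 52 higher and 26 lower in N2 EV (median −0.37); 17 passed the filter only through TU3401 EV, and quantile normalization gave 32 higher and 6 lower (median 0.79). The 3 most abundant in N2 EV were higher: *his-72*, a histone H3.3, had 585 ± 11.3 TPM in N2 EV and 273 ± 16.8 TPM in TU3401 EV, *his-74* 721 ± 40.9 TPM in N2 EV and 431 ± 26.2 TPM in TU3401 EV and the linker histone *his-24* 126.5 ± 44.6 TPM in N2 EV and 20.5 ± 2.47 TPM in TU3401 EV. *his-71*, another H3.3 gene, was lower, with 19.6 ± 0.848 TPM in N2 EV and 56.6 ± 11.4 TPM in TU3401 EV, as was *his-70*, with 0.0402 TPM in N2 EV and 8.97 TPM in TU3401 EV, and *his-35*, a histone H2A, with 63.6 ± 8.24 TPM in N2 EV and 83.8 ± 8.03 TPM in TU3401 EV. Replication-dependent histone genes are near-identical copies whose messages in animals mostly lack a poly(A) tail, so an mRNA kit catches few of them, and single values are uncertain.

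Genes of the early embryo moved in both directions. The 5 markers of zygotic transcription *end-1*, *end-3*, *med-1*, *hlh-1* and *pes-10* summed to 2.79 to 3.70 TPM in the N2 EV libraries and 3.15 to 4.39 TPM in the TU3401 EV libraries, so the groups overlapped, and *med-1*, which starts the endoderm, was listed at 0 in N2 EV. Of 27 tested early zygotic genes of 68, 14 were higher and 10 lower (median 1.05). That median was −0.25, −0.18 and −0.11 without N2 EV replicate 1, 2 or 3, so its direction did not hold when any 1 of them was left out. Of the 27, 7 passed the filter only through N2 EV and 4 only through TU3401 EV. In a fit limited to genes with at least 1 TPM in each group 7 of 16 were higher and 6 lower (median −0.20). In this list *tbx-11*, a T-box factor, stood at 6.96, 6.14 and 8.76 TPM in N2 EV and 0.310, 0.296 and 0.325 TPM in TU3401 EV, *sdz-28* at 4.32, 4.29 and 7.05 TPM in N2 EV and 0.0550, 0.1095 and 0.384 TPM in TU3401 EV and *pes-5* at 22.1, 20.8 and 20.7 TPM in N2 EV and 5.01, 4.77 and 3.48 TPM in TU3401 EV, and *sdz-24* went the other way with 0.720 ± 0.135 TPM in N2 EV and 70.01 ± 12.8 TPM in TU3401 EV. Of 8 tested T-box genes 6 were higher and 2 lower, and of 32 homeobox ceh genes 20 and 7. *ceh-43*, the Distal-less homologue of the embryonic epidermis and head neurons, stood at 8.15, 16.5 and 20.2 TPM in N2 EV and 0.617, 1.36 and 1.24 TPM in TU3401 EV, and *nhr-2*, an embryonic nuclear receptor, had 21.4 ± 2.44 TPM in N2 EV and 3.44 ± 0.956 TPM in TU3401 EV. *elt-1*, the GATA factor that specifies the epidermis, had 19.7 ± 4.50 TPM in N2 EV and 5.14 ± 1.02 TPM in TU3401 EV.

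*hch-1*, the protease that digests the eggshell at hatching, stood at 6.34, 9.91 and 28.4 TPM in N2 EV and at 0 TPM in each TU3401 EV library. *ins-2*, an insulin-like peptide, had 7.60 ± 4.24 TPM in N2 EV and 0.204 ± 0.134 TPM in TU3401 EV. The 57 genes in which N2 EV replicate 3 was at least 2-fold above both other N2 EV libraries include *hch-1*, the collagens *dpy-14*, *dpy-17* and *sqt-3*, the epidermal matrix genes *noah-1* and *noah-2* and the homeobox gene *ceh-16*; these 7 were picked after their values were seen. *noah-2* stood at 6.92, 8.56 and 24.1 TPM in N2 EV and *ceh-16* at 2.46, 4.72 and 10.2 TPM in N2 EV. *lin-26*, a zinc finger factor that keeps epidermal cells epidermal, did not vary in this way, at 151, 141 and 161 TPM in N2 EV and 71.3, 82.0 and 61.8 TPM in TU3401 EV.

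The Skp1-related family skr, adaptors of ubiquitin ligases that have multiplied in nematodes, gave 14 higher and 4 lower of 20. Of the 20, 8 (40%) were at least 4-fold higher in N2 EV, against 2.12% of all genes tested. *skr-8*, *skr-9* and *skr-12* had means under 1 TPM in TU3401 EV. They passed the filter only through N2 EV and had to be higher there, and other such members were not counted. *skr-12* stood at 26.5, 29.5 and 31.1 TPM in N2 EV and 0.595, 0.271 and 0.729 TPM in TU3401 EV and *skr-7* at 58.1, 64.4 and 60.6 TPM in N2 EV and 5.81, 7.35 and 5.74 TPM in TU3401 EV, and *skr-8* and *skr-9* had 10.3 and 7.40 TPM in N2 EV and 0.0995 and 0 TPM in TU3401 EV, whereas *skr-3* was lower (−2.08 ± 0.14). F-box, BTB and MATH genes, which encode substrate receptors of such ligases, gave 85 higher and 101 lower of 220 (median −0.13), a balance that rests on the scaling, since quantile normalization gave 148 higher and 31 lower (median 0.86). Of the 220, 54 passed the filter only through TU3401 EV and 23 only through N2 EV. Of 113 fbxa genes, the most numerous family, 28 were higher and 65 lower (median −0.70), but 72 and 16 with quantile normalization (median 0.61). Of 37 bath genes 25 were higher and 6 lower, and 34 and 0 with quantile normalization, and of 20 math genes 1 was higher and 18 lower, and 3 and 11 with quantile normalization. Among gap junction subunits *inx-2* and *inx-3* were higher, at 49.6, 50.1 and 52.5 TPM in N2 EV and 4.08, 5.54 and 3.88 TPM in TU3401 EV and at 123.2, 111 and 113 TPM in N2 EV and 14.4, 15.3 and 12.01 TPM in TU3401 EV, and *inx-15* and *inx-16* of the intestine lower (−3.31 ± 0.12 and −3.24 ± 0.16).

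**Figure D3:**
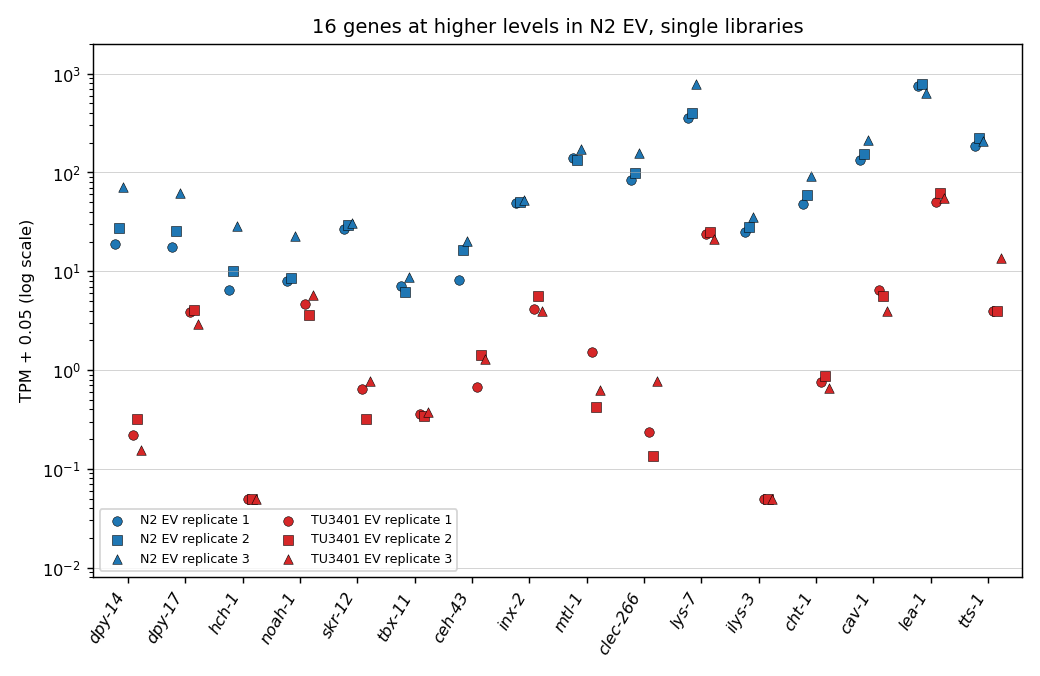
TPM + 0.05 (vertical, log scale) of 16 genes at higher levels in N2 EV, one mark per library (blue N2 EV, red TU3401 EV, with a mark shape for each replicate number). No gene has overlapping groups, and N2 EV replicate 3 (triangles) is the highest N2 library for *dpy-14*, *dpy-17*, *hch-1*, *noah-1*, *lys-7* and *clec-266*, among others.

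Neuropeptide genes were mostly lower in N2 EV, from low levels, and how many depended on the scaling. Of 30 FMRFamide-like peptide genes (flp), 26 were lower and 1 higher (median −1.77), and with quantile normalization 15 were lower and 4 higher (median −0.45). Of these 30 genes 18 passed the filter only through TU3401 EV, and in a fit limited to genes with at least 1 TPM in each group 9 of 12 were lower and 1 higher. *flp-11*, a peptide of a sleep-promoting neuron, had 0.856 ± 0.602 TPM in N2 EV and 12.8 ± 4.77 TPM in TU3401 EV, while *flp-6* stood at 23.4, 20.4 and 25.1 TPM in N2 EV and 5.58, 6.46 and 11.6 TPM in TU3401 EV. Of 56 other neuropeptide-like genes (nlp), 47 were lower and 4 higher (median −1.42), and with quantile normalization 20 were lower and 14 higher (median −0.19). Of these 56 genes 24 passed the filter only through TU3401 EV, and in a fit limited to genes with at least 1 TPM in each group 23 of 31 were lower and 3 higher. In this list *nlp-24* had 2.14 ± 1.07 TPM in N2 EV and 183 ± 30.1 TPM in TU3401 EV, and *nlp-39* was listed at 0 in each TU3401 EV library and stood at 22.3, 44.95 and 33.7 TPM in N2 EV. For genes of synaptic transmission 17 of 26 were lower and 5 higher (median −0.88), and with quantile normalization 4 were lower and 12 higher (median 0.12); 8 of the 26 passed the filter only through TU3401 EV. *egl-21* and *egl-3*, both enzymes that process neuropeptides, were lower (−2.09 ± 0.13 and −1.57 ± 0.19), and the members that were higher, *snb-1*, *ric-7*, *ric-8*, *unc-11* and *syd-2*, include genes with roles outside the synapse, and *unc-11* turned to −0.08 with quantile normalization; *snb-1*, synaptobrevin, had 392 ± 17.7 TPM in N2 EV and 211 ± 10.7 TPM in TU3401 EV. Of 10 pan-neuronal genes 4 were higher and 5 lower (median −0.15), and with quantile normalization 7 and 1 (median 0.62). *unc-119*, whose promoter drives the *sid-1* transgene, stood at 16.9, 19.4 and 20.0 TPM in N2 EV and 7.99, 7.69 and 9.10 TPM in TU3401 EV (1.09 ± 0.12), and *unc-44*, a neuronal ankyrin, was lower (−2.53 ± 0.22). Among 13 insulin-like peptide genes 3 were higher and 7 lower (median −0.81), and 6 and 2 with quantile normalization (median 0.39), with *ins-19* at 6.43, 5.78 and 8.32 TPM in N2 EV and 0, 0 and 0.130 TPM in TU3401 EV and *ins-27* lower (−3.38 ± 0.26). Of the 13, 5 passed the filter only through TU3401 EV and 2 only through N2 EV. Of 1629 chemoreceptor genes only 13 reached the filter, of which 8 were lower and 2 higher (median −0.95), and 4 and 6 with quantile normalization (median 0.46); 7 of the 13 passed only through TU3401 EV.

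TU3401 was built to respond to RNAi in neurons, so the genes of RNAi were followed as a list. *sid-1* stood at 73.7, 67.001 and 64.3 TPM in N2 EV and 98.8, 96.6 and 98.2 TPM in TU3401 EV (−0.51 ± 0.07; limma, adjusted p = 1.11e-04), so its level in whole TU3401 worms was 1.43 times that in N2 EV, and transcripts of the transgene and of the genomic gene are not told apart by these values. Of 34 genes of the RNAi pathway, 28 were higher in N2 EV and 3 lower, namely *sid-1*, *sid-2* and *drh-2*, with a median of 0.84. *sid-2*, which takes up double-stranded RNA in the gut, stood at 6.30, 5.50 and 3.76 TPM in N2 EV and 24.5, 21.8 and 24.4 TPM in TU3401 EV, and *rde-4*, the double-stranded RNA binding partner of Dicer, at 213, 209.7 and 208 TPM in N2 EV and 91.5, 90.4 and 82.6 TPM in TU3401 EV. Of 21 Argonautes, 11 were higher and 7 lower (median 0.36): *wago-1*, of the germ line, had 601 ± 13.3 TPM in N2 EV and 241 ± 28.7 TPM in TU3401 EV, the nuclear Argonaute of the germ line *hrde-1* 420.2 ± 18.5 TPM in N2 EV and 243 ± 41.1 TPM in TU3401 EV, and *prg-2* was lower (−0.66 ± 0.08).

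Genes of immunity and detoxification were mostly lower in N2 EV, with a few large exceptions. Of 81 tested C-type lectin genes, 64 were lower and 12 higher (median −1.52); *clec-266* stood at 83.0, 98.3 and 158 TPM in N2 EV and 0.187, 0.0839 and 0.722 TPM in TU3401 EV (6.40 ± 0.25), and *clec-87*, the most abundant lectin, had 3149 ± 102 TPM in N2 EV and 929 ± 129 TPM in TU3401 EV, whereas *clec-63* was lower, with 171 ± 9.08 TPM in N2 EV and 1232 ± 124 TPM in TU3401 EV. Of 11 lysozymes 8 were lower and 3 higher (median −1.63). *lys-7* stood at 352, 405 and 779 TPM in N2 EV and 23.5, 24.9 and 20.95 TPM in TU3401 EV (4.32 ± 0.25) and *ilys-3* at 25.2, 27.9 and 35.7 TPM in N2 EV against 0 in each TU3401 EV library, while *lys-1* was lower (−2.30 ± 0.07). The saposin-like and antimicrobial peptide genes gave 36 lower and 6 higher of 48 (median −2.23), from −4.88 ± 0.13 for *spp-4* to 3.52 ± 0.21 for *abf-2*. Glutathione S-transferases gave 21 lower and 5 higher of 28 (median −1.73), and UDP-glucuronosyltransferases 33 and 6 of 44 (median −1.92). Cytochrome P450 genes gave 15 higher and 16 lower of 38 (median −0.06), but 24 higher and 4 lower with quantile normalization (median 0.90), so their balance depended on the scaling. *cyp-31A2*, whose family makes lipids of the eggshell, had 198 ± 4.35 TPM in N2 EV and 64.7 ± 8.78 TPM in TU3401 EV, and *cyp-13A6* went the other way with 2.77 ± 1.08 TPM in N2 EV and 86.0 ± 7.85 TPM in TU3401 EV. Transthyretin-related genes gave 36 lower and 6 higher of 48 (median −1.47), and the secreted SCP-like genes 5 lower and 2 higher of 7 (median −1.88). With quantile normalization the lower calls stayed the more numerous in the lectins (45 against 18, median −0.49), the saposin-like genes (30 against 10, median −1.30), the glutathione S-transferases (15 against 8, median −0.94), the UDP-glucuronosyltransferases (24 against 16, median −0.79) and the transthyretin-related genes (28 against 11, median −0.81). The same held for the lysozymes (6 against 3, median −0.61) and the SCP-like genes (4 against 2, median −0.47). Members that passed the filter only through TU3401 EV numbered 33 of the lectins, 17 of the saposin-like genes, 5 of the glutathione S-transferases, 14 of the UDP-glucuronosyltransferases, 8 of the transthyretin-related genes and 4 of the SCP-like genes.

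Among the stress genes, 1 transcript held most of the TPM of the heat shock list. The 16 small and inducible heat shock genes summed to means of 8830 TPM in N2 EV and 1527 TPM in TU3401 EV. Of these sums *sip-1* held 8729 and 1343 TPM. *sip-1*, a small heat shock protein, was the second most abundant transcript of N2 EV at 8773, 9009.9 and 8405 TPM in N2 EV and 1293, 1509.6 and 1226 TPM in TU3401 EV (2.70 ± 0.09). Of 16 small and inducible heat shock genes, 7 were higher, 4 lower and 5 did not pass (median 0.31), and with quantile normalization 11 were higher and 3 lower (median 1.54). *hsp-16.2*, a classic heat shock reporter, had 5.28 ± 0.410 TPM in N2 EV and 0.668 ± 0.526 TPM in TU3401 EV, and *hsp-12.2* was lower (−3.998 ± 0.17). The antioxidant and thiol enzymes gave 14 higher and 6 lower of 23 (median 0.39), with the catalases *ctl-3* and *ctl-1* at 1.80 ± 0.15 and 1.27 ± 0.15, *sod-2*, the mitochondrial superoxide dismutase, at 0.88 ± 0.08 and *gpx-5* at −2.43 ± 0.18. The dod genes, named as targets downstream of the FOXO factor DAF-16, split 4 to 4 (median −0.57): *dod-3* had 37.4 ± 2.39 TPM in N2 EV and 0.804 ± 1.17 TPM in TU3401 EV and *dod-17* 0.569 ± 0.104 TPM in N2 EV and 46.3 ± 7.07 TPM in TU3401 EV. *lea-1*, a desiccation-protection protein, stood at 749, 780.0 and 641 TPM in N2 EV and 49.7, 61.4 and 55.3 TPM in TU3401 EV, and *tts-1*, a long non-coding RNA that associates with ribosomes, at 185, 224 and 209 TPM in N2 EV and 3.94, 3.89 and 13.5 TPM in TU3401 EV.

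The translation machinery did not move as 1 block. Of 81 cytosolic ribosomal protein genes, 77 were lower in N2 EV and none higher (median −0.56), whereas with quantile normalization 40 were lower and 5 higher (median −0.19). They took 16.5 ± 0.737% of all TPM in N2 EV and 24.3 ± 0.409% in TU3401 EV. *rps-8* stood at 4048, 3825 and 4225 TPM in N2 EV and 5989.6, 6176 and 5490.4 TPM in TU3401 EV. Mitochondrial ribosomal proteins gave 35 higher and 6 lower of 67 (median 0.21), and 6 higher and 35 lower with quantile normalization (median −0.23). The aminoacyl-tRNA synthetases, which load amino acids onto tRNA, gave 27 higher and 1 lower of 32 (median 0.46), and the translation factors 23 and 6 of 41 (median 0.28), or 18 and 12 with quantile normalization (median 0.08). *eef-1A.1*, an elongation factor and the most abundant transcript of both groups, stood at 12019, 11366 and 12687 TPM in N2 EV and 8857, 8743 and 7555 TPM in TU3401 EV. Proteasome subunits were higher in 32 of 33 (median 0.57), the exception being *rpn-6.2* (−0.63 ± 0.10), and chaperones in 39 of 53 with 4 lower (median 0.44), or 29 with 8 lower with quantile normalization.

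In several places 2 genes for the same enzyme or subunit differed in opposite directions; these pairs were picked after their values were seen. For the elongation factor eEF1A, *eef-1A.1* was higher (0.52 ± 0.09) and *eef-1A.2* lower (−1.89 ± 0.10), where *eef-1A.1* ranked first in every library and so stood at 0 with quantile normalization. For the b subunit of the ATP synthase, *asb-1*, the germ line form, had 527 ± 15.1 TPM in N2 EV and 274 ± 15.98 TPM in TU3401 EV, and *asb-2* had 84.2 ± 0.611 TPM in N2 EV and 423 ± 39.2 TPM in TU3401 EV. For glyceraldehyde-3-phosphate dehydrogenase, *gpd-1* and *gpd-4* were higher, by 1.85 ± 0.08 and 1.52 ± 0.08, and *gpd-2* and *gpd-3* lower (−1.86 ± 0.10 and −1.91 ± 0.10). For aldolase, *aldo-2* was higher (0.31 ± 0.06; not past the test with median-of-ratios scaling, 0.12) and *aldo-1* lower (−3.51 ± 0.14), and for succinate dehydrogenase the flavoprotein genes *sdha-2* and *sdha-1* gave 1.00 ± 0.08 and −0.75 ± 0.08. For the ribosomal protein L11 the pair was unequal: *rpl-11.1* did not pass (0.00 ± 0.08) while *rpl-11.2* was lower, at 79.8, 91.4 and 98.01 TPM in N2 EV and 1030.0, 1032 and 1258 TPM in TU3401 EV. Reads of the near-identical copies *gpd-1* and *gpd-4*, and *gpd-2* and *gpd-3*, may have been shared.

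Genes of energy metabolism moved in both directions, by small amounts for most. Nuclear genes of the respiratory chain and ATP synthase gave 27 lower and 9 higher of 50 (median −0.24), with *cyc-2.2*, a cytochrome c gene, listed at 0 in each N2 EV library against a mean of 55.1 TPM. The mitochondrial genome gave 3 higher and 1 lower of 13 (median 0.24). Glycolysis and gluconeogenesis gave 13 higher and 8 lower of 23 (median 0.19), or 6 and 14 with quantile normalization (median −0.22), and the TCA and glyoxylate cycles 11 and 9 of 25 (median −0.05), or 7 and 12 with quantile normalization (median −0.10). Nuclear hormone receptors gave 86 lower and 32 higher of 145 (median −0.60), but 19 lower and 95 higher with quantile normalization (median 0.70); 36 of them passed the filter only through TU3401 EV. In this list *nhr-114* had 1.17 ± 0.743 TPM in N2 EV and 45.6 ± 6.599 TPM in TU3401 EV.

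**Figure D4:**
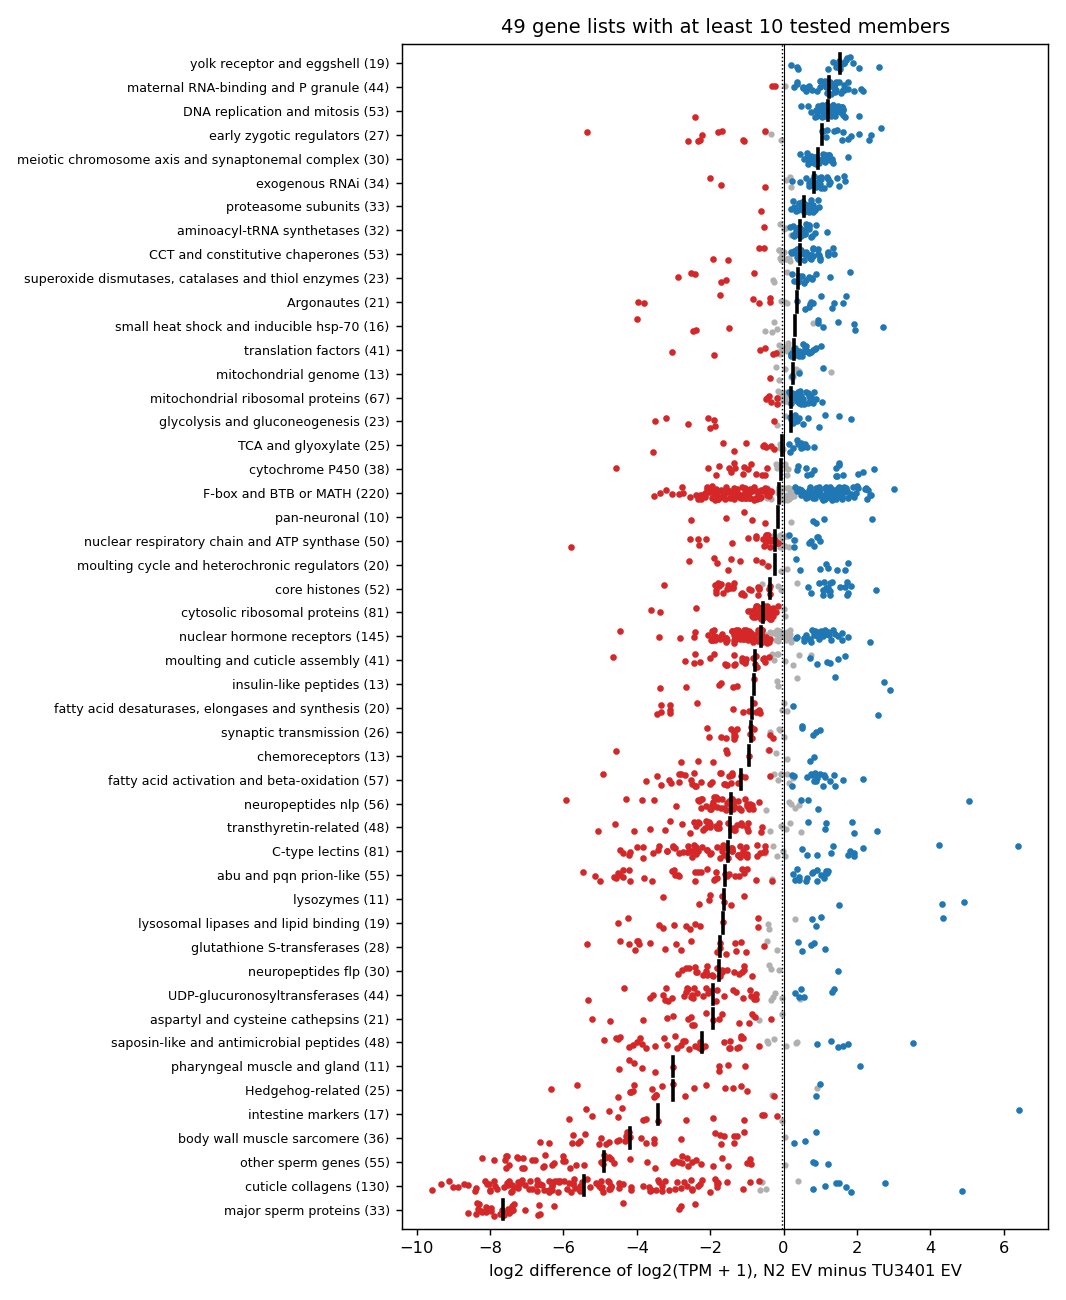
Log2 difference, N2 EV minus TU3401 EV (horizontal), of each tested member of the 49 gene lists with at least 10 tested members (list sizes in brackets), ordered by their medians (black bars). Blue points were higher and red points lower in N2 EV at an adjusted p under 0.05, grey points did not pass, and the dotted line is the median of all genes tested.

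By size alone, the 12 genes with the largest differences towards N2 EV were *mtl-1*, *clec-266*, *cht-1*, *dhs-26*, *nlp-39*, *ilys-3*, *tts-1*, *dpy-14*, *cav-1*, *dod-3*, *21ur-3208* and *C54C8.12*, from 6.42 ± 0.21 to 4.51 ± 0.14. *cht-1*, a chitinase, stood at 47.4, 58.5 and 91.3 TPM in N2 EV and 0.708, 0.826 and 0.605 TPM in TU3401 EV, and *cav-1*, a caveolin, at 133, 155 and 215 TPM in N2 EV and 6.41, 5.62 and 3.88 TPM in TU3401 EV, both with non-overlapping groups. *dhs-26*, a short-chain dehydrogenase, had 45.98 ± 1.16 TPM in N2 EV and 0.296 ± 0.296 TPM in TU3401 EV. *C54C8.12* was listed at 0 in each TU3401 EV library and at 18.8, 23.7 and 23.4 TPM in N2 EV. *21ur-3208* is a piRNA locus that lies inside *clec-190* on the same strand, and *clec-190* was also higher (4.22 ± 0.13), so the reads of the 2 cannot be told apart. The 12 genes with the largest differences towards TU3401 EV were all collagen or msp genes, from −9.59 ± 0.43 for *col-139* to −8.37 ± 0.18 for *msp-81*. Among the most abundant transcripts, *cey-2*, a cold-shock domain protein of the germ line, was higher, with 4297 ± 190.2 TPM in N2 EV and 1865 ± 254 TPM in TU3401 EV, while *rpl-41.2* and *rla-0*, of the ribosome, were lower (−0.98 ± 0.22 and −0.70 ± 0.07). *rrn-3.1*, a ribosomal RNA gene that a poly(A) kit should largely remove, stood at 4604, 3389 and 2091 TPM in N2 EV and 6827, 5457 and 1816 TPM in TU3401 EV and did not pass, with the libraries of each group spread more than 2-fold. Among genes of at least 100 TPM the 6 smallest differences were those of *rpl-11.1*, *pfd-2*, *Y56A3A.19*, *F53F10.2*, *rab-1* and *F37C12.3*; *pfd-2*, of the prefoldin chaperone, stood at 130.3, 134 and 128 TPM in N2 EV and 128, 134 and 131 TPM in TU3401 EV.

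Families were also read off from gene symbols alone. Of 147 symbol families with at least 8 tested members, 11 had every tested member lower in N2 EV (msp, nspd, ssp, abu, nspa, nspb, nspc, aqp, oac, lgc and rps) and 12 every member higher (rsp, prp, sel, npp, usp, wdr, rnp, atg, cec, cdk, hmg and sqv). The latter include all 24 nucleoporins (npp), all 12 autophagy genes (atg) and all 8 SR-type splicing factors (rsp), with medians of 0.91, 1.14 and 0.49. *npp-18* had 168 ± 6.10 TPM in N2 EV and 60.6 ± 6.36 TPM in TU3401 EV. With quantile normalization none of these 23 families but lgc turned its median, though fewer members passed, such as 19 of 24 npp genes higher and 17 of 31 rps genes lower. Among the former, the 9 ligand-gated channel genes (lgc) had a median of −1.13 (0.14 with quantile normalization, with 3 higher and 2 lower) and the 11 acyltransferase-like oac genes −1.65 (−0.23 with quantile normalization, with 2 higher and 5 lower).

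The chromosomes differed in the balance of calls. On chromosomes I and III 53.5% and 54.7% of tested genes were higher in N2 EV and 35.7% and 34.3% lower, on II 45.1% and 43.5%, on IV 41.1% and 48.4%, on V 35.8% and 53.3%, and on X 28.1% and 59.6%. The medians ran from 0.42 on III to −0.91 on X. With sperm and collagen genes left out the X had 28.5% higher and 59.1% lower (median −0.87). In *C. elegans* the X is largely silent in the germ line, and germ line genes are rare on it; its part in these shares was not tested. Longer transcripts were more often higher in N2 EV. With protein-coding genes put into 5 equal classes by their longest annotated transcript, 31.1% were higher and 56.6% lower in the shortest class, and 59.4% and 31.5% in the longest. Of 12458 protein-coding genes 45.1% were higher and 44.7% lower, while of 403 pseudogenes 17.9% and 52.9% were, and of 32 long intergenic RNAs 3.13% and 71.9%. Among all genes with a mean of 1 to 5 TPM the shares were 12.3% and 73.2%, and chromosomes, length classes and gene types were not matched by level. The length classes kept the sperm and collagen genes. These shares were taken without quantile normalization.

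The same contrast can be taken a second time in the 6 knockdown libraries, which share no sample with the EV libraries. There N2 worms with *rpia-1* knockdown in adulthood only, labelled day 5, stood against TU3401 worms with knockdown from the embryo on, labelled day 0. Of 13412 genes tested, 5482 (40.9%) were higher in N2 and 5234 (39%) in TU3401. Over the 13114 genes tested in both, the 2 sets of differences had a Pearson's r of 0.990 and a Spearman's rho of 0.989 across genes, which share their strains and labelled ages and are not independent replicates. Of 5791 genes higher in N2 EV 5328 were also higher in the N2 knockdown group (or 92.0% of the former and 98.9% of the latter), and of 5878 genes higher in TU3401 EV 5090 were again higher in TU3401 (86.6% and 98.9%). One gene, *Y44E3A.1*, passed in opposite directions, with −0.37 ± 0.15 in the EV and 1.118 in the knockdown libraries, where N2 knockdown replicate 1 held 17.7 TPM and the other 2 N2 libraries 6.24 and 6.88 TPM. Its EV call was not stable and was lost in 9 of 20 alternatives. Among these were FPKM and all 12 libraries in 1 fit (limma, adjusted p = 0.138 and 0.248). Leaving out N2 EV replicate 1 or 3 or TU3401 EV replicate 2 or 3 also lost it (limma, adjusted p = 0.0809 to 0.125). Quantile normalization turned the difference to 0.90.

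The list medians in the knockdown libraries were −7.75 for msp genes, −5.01 for collagens, −3.80 for the muscle sarcomere, −2.95 for vitellogenins, 1.41 for eggshell genes, 1.13 for replication and mitosis and −0.51 for ribosomal proteins, beside 0.02 over all genes. N2 knockdown replicate 1 stood apart, with 22388 genes above 0 TPM against 17777 and 18739 in the other N2 knockdown libraries. It held 464 TPM of *clec-266* against 83.5 and 118 TPM, and 183 TPM of *dpy-14* against 17.7 and 22.8 TPM. The differences of *mtl-1*, *clec-266* and *dpy-14* in the knockdown libraries were 6.33, 6.64 and 5.03, or 5.99, 5.90 and 3.99 without that library. Leaving it out gave 5258 genes higher in N2 and 5907 in TU3401, a median over all genes of −0.15, and medians of −5.19 for collagens, −3.86 for the muscle sarcomere and 1.48 for eggshell genes. A test of the difference between the 2 contrasts used all 12 libraries, and 1 of 13383 genes passed (0.00747%; 156 had an unadjusted p under 0.05). It was *rpia-1*, the target of the knockdown, which stood at 27.5, 32.8 and 30.2 TPM in the N2 knockdown libraries and at 82.0, 88.5 and 106 TPM in the TU3401 knockdown libraries.

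**Figure D5:**
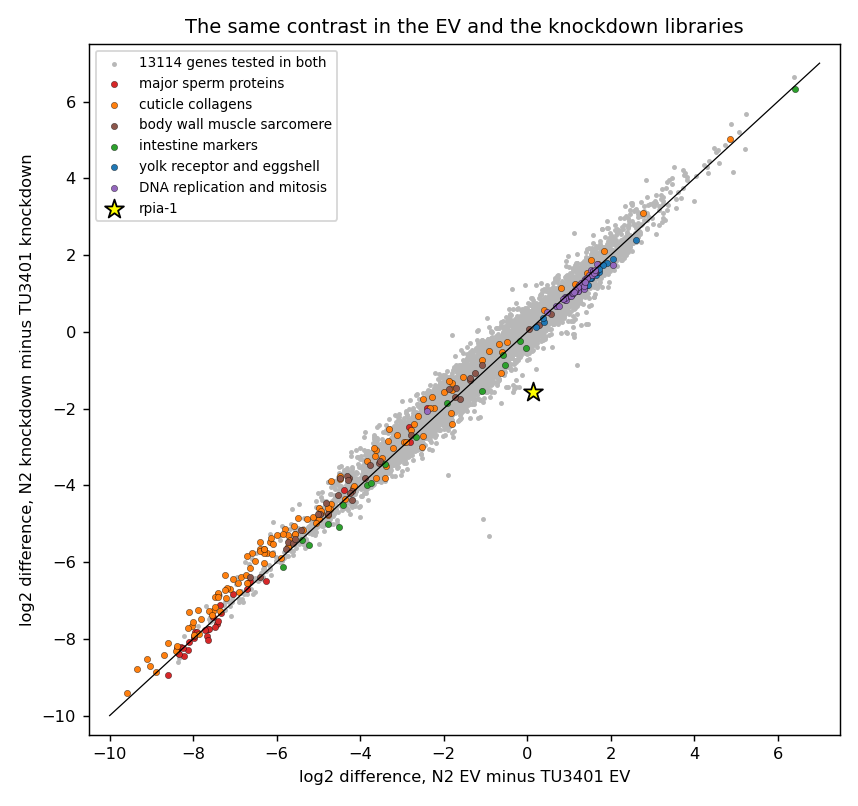
Log2 difference, N2 minus TU3401, of each of the 13114 genes tested in both contrasts, in the EV libraries (horizontal) and the knockdown libraries (vertical), with 6 gene lists in colour, a star for *rpia-1* and the line of equal differences. The genes lie along the line from about −9.59 to 6.42 in the EV libraries, and *rpia-1* lies below it.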

How the data were processed

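Whole-worm mRNA was sequenced on 12 libraries in 4 groups of 3, of which the 6 EV libraries carry the contrast. Per the methods, RNA was extracted with RNeasy, prepared with Illumina Stranded mRNA Prep and sequenced as paired-end reads on an Illumina NovaSeq. The authors trimmed, aligned and counted the reads, and the submitters' processing notes name FastQC 0.11.9, MultiQC 1.12, Trimmomatic 0.36, HISAT2 2.2.1 and featureCounts 1.6.2. The genome build and the strand setting of the counting are not given in the sources used here, and no coordinates are printed. The authors deposited FPKM values, fragments per kilobase of transcript scaled to the size of the library. The authors also deposited a normalized signal that they labelled TPM, whose columns are the FPKM values times 1 factor per library and sum to slightly more than TPM do by definition; it was not treated as counts.

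Genes that averaged at least 1 TPM in the 6 EV libraries were tested with limma 3.58.1 in R 4.3.3 on log2(TPM + 1), its moderated test with a trend in the variance, two-sided, with Benjamini-Hochberg adjustment over all genes tested and a threshold of 0.05. A pseudocount of 1 understates the differences of genes at low levels. The fit was tested on simulated data. The knockdown libraries were fitted alone in the same way, and the interaction in all 12. Gene IDs were matched to Ensembl 115 (WBcel235) for chromosome, gene type and transcript length, and 46817 of 46904 matched.

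Genes, lists and the 52 list memberships were chosen with earlier results of these data known, and some memberships were corrected after values were seen. Named genes were label checks, the 12 largest differences each way, the 10 highest levels in each group, in each list the 3 members at the highest levels and the 2 with the largest differences, and the 6 smallest differences at 100 TPM or more; other genes were chosen with their values in view. Alternatives tried were other pseudocounts and filters, FPKM, other scalings, other settings of the fit, a replicate block and leaving out libraries. Promoter motifs and sequences were not analysed here. Near-identical genes (msp, collagen, actin, histone, gpd, cyp-31A) may share reads. Error bars cover the spread between samples only.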

Additional observations from a re-analysis of the deposited data

Results flagged for a closer look

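*rpia-1* was the 1 gene whose difference between N2 and TU3401 differed between the knockdown and the EV libraries by the test of that difference itself. The difference was 0.14 ± 0.07 in the EV libraries and −1.58 in the knockdown libraries, and the change between them was −1.72 ± 0.14 (limma interaction over 12 libraries, adjusted p = 5.03e-04). *rpia-1* was the target of the knockdown, and all 3 N2 knockdown libraries lay below all 3 TU3401 knockdown libraries. Dixon's test for single samples far from the others was not run on these groups of 3 libraries.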

How the results depend on the processing

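Over 21 alternatives, 199 named genes and 52 lists, the directions of the calls held except as follows. A filter of at least 1 TPM in each group gave 5488 genes higher in N2 EV and 2996 in TU3401 EV. Of these, 197 and 901 were at least 4-fold. With at least 5 TPM over both groups 5291 and 2983 genes were higher (222 and 1619 at least 4-fold). Both filters test fewer genes. The count at least 4-fold higher in N2 EV was 165 with FPKM, 489 with a pseudocount of 0.1, 91 with a pseudocount of 5 and 879 with quantile normalization, and that in TU3401 EV 929 with a pseudocount of 5 and 1326 with quantile normalization. Quantile normalization turned 717 genes from TU3401 EV to N2 EV and 156 the other way, and no other alternative turned a call. It moved the medians of all genes to 0.25, moulting and cuticle assembly to 0.41, heterochronic regulators to 0.66, histones to 0.79, insulin-like peptides to 0.39, synaptic transmission to 0.12, mitochondrial ribosomal proteins to −0.23, glycolysis to −0.22, nuclear hormone receptors to 0.70 and chemoreceptors to 0.46. It also gave *F53F10.2* −0.51, *Y44E3A.1* 0.90, *clp-1* −0.29, *eef-1A.1* 0, *ges-1* 0.083, *R10E8.10* 0.013, *puf-9* 0.29, *rpia-1* −0.40, *rpl-11.1* 0.37 and *unc-11* −0.084. Median-of-ratios scaling gave *F53F10.2* −0.18, *act-2* −0.15 and *rab-1* −0.18. The filter of at least 1 TPM in each group turned the medians of all genes to 0.44, abu and pqn genes to 0.39, histones to 1.09, early zygotic genes to −0.20, pharynx genes to 0.16 and SCP-like genes to 0.93, and that of at least 5 TPM turned those of all genes to 0.48, histones to 1.20, early zygotic genes to −0.064, synaptic transmission to 0.10, beta-oxidation to 0.082 and nuclear hormone receptors to 0.21. The cause of these changes was not tested beyond the smaller number of genes. Of 184 genes named in the text that passed the test, 18 lost or turned their call in at least 1 alternative and 5 (*fbf-2*, *puf-9*, *perm-2*, *dpy-10* and *Y44E3A.1*) when 1 library was left out.

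Leaving out 1 library at a time gave 5582 to 5835 genes higher in N2 EV and 5648 to 6247 higher in TU3401 EV, and moved the median of all genes between −0.15 and 0.046 (above 0 without TU3401 EV replicate 3), that of early zygotic genes between −0.25 and 1.17 and that of insulin-like peptides between −0.86 and 0.027. Without N2 EV replicate 3 and TU3401 EV replicate 3 together, an alternative chosen after seeing the data, 5722 genes were higher in N2 EV (263 at least 4-fold) and 5933 in TU3401 EV (2448 at least 4-fold). A fit with the replicate block gave 5779 and 6065 calls, and 283 and 2576 at least 4-fold; same-numbered libraries did not deviate together (correlations of their deviations 0.09, −0.11 and 0.03), so the numbers were not taken as pairs. With FPKM 4196 genes were higher in N2 EV and 5131 in TU3401 EV. TPM keep no total of reads, so differences of genes near 1 TPM are limited by a depth that is known only relative to the other libraries.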

Other observations

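Non-coding genes leaned towards TU3401 EV, though the kit was made for messenger RNA and such transcripts are caught unevenly. Of 67 tested snoRNA genes 11 were higher in N2 EV and 44 lower, of 186 piRNA loci 47 and 114, of 12 microRNA genes 1 and 10, and of 160 other non-coding RNA genes 38 and 71, against 5623 and 5571 of 12458 protein-coding genes. All genes with a mean of 1 to 5 TPM leaned the same way, with 12.3% higher in N2 EV and 73.2% lower. Gene types were not matched by level, so level and gene type cannot be told apart in these counts. piRNA loci are short and can lie inside other genes, as *21ur-3208* does, and the reads of such pairs cannot be told apart.

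TU3401 EV replicate 3 stood at least 2-fold above both other libraries of its group in 115 genes, among which *ule-4*, at 199, 169 and 416 TPM in TU3401 EV, *rpl-37*, at 137, 123.2 and 355 TPM in TU3401 EV, and *hsp-43*, a small heat shock gene, at 36.0, 35.8 and 72.9 TPM in TU3401 EV, are shown; they were picked after their values were seen. The N2 EV values of *rpl-37* were 79.5, 259 and 83.2 TPM, so N2 EV replicate 2 and TU3401 EV replicate 3, which also had the lowest ratios of TPM to FPKM, were its highest libraries. It did not pass the test between the groups (adjusted p = 0.276), but it was lower in N2 EV with FPKM (−0.76, limma, adjusted p = 8.12e-04) and without N2 EV replicate 2 (−1.15, adjusted p = 0.0192).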
